A study of Rattus norvegicus with 7 samples.

Results

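The dual specificity phosphatases Dusp1, Dusp4, Dusp5, Dusp6, Dusp10 and Dusp16 and the Sprouty-family inhibitors Spry1, Spry2, Spry4 and Spred1 were followed by gene symbol in rat mesenchymal stem cells (rMSCs), and all 10 symbols were present among the 17147 listed. The cells were primary cells from the bone marrow of a male Sprague-Dawley rat aged 6 weeks, collected 4 h after 20000 of them had been seeded on tissue culture plate (TCP), on films of polycaprolactone (PCL) or on films of ISB-P, the polyurethane copolymer of PCL with propoxylated isosorbide. All cells were unmodified and grown in the same serum-containing medium, so that the surface was the labelled difference between the groups. RNA-seq values of 7 libraries were analysed, with 3 libraries for ISB-P, 3 for PCL and 1 for TCP, and the purpose of the comparison was to see which transcripts differ on the film to which cells attach most strongly. Nothing in the labels says that the libraries of one film came from separate animals or cultures, so p-values measure the spread between these libraries, which may be technical. The values were read as FPKM, fragment counts scaled to transcript length and library size, and summed to between 539393 on TCP and 660124 in ISB-P replicate 3. Low values showed no common step from which read numbers could be recovered, so the depth is unknown, no detection limit is given, and precision rests on the 3 libraries of each film.

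MAP kinases are the last step of cascades that carry signals from growth factor receptors, adhesion sites and stress into the nucleus, and they are switched on by phosphorylation of a threonine and a tyrosine. Dual specificity phosphatases remove both phosphates. Dusp6 is a cytosolic phosphatase selective for ERK, Dusp5 a nuclear one selective for ERK, Dusp1 and Dusp4 are nuclear enzymes that act on several MAP kinases, and Dusp10 and Dusp16 prefer the stress kinases JNK and p38. Sprouty and Spred proteins act further up, between receptor tyrosine kinases and Raf. Many of these genes are themselves transcribed when the cascade is active, which makes them negative feedback regulators.

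The cells had the transcripts of mesenchymal cells on every surface. Thy1, a surface glycoprotein used to define these cells, was 1210 FPKM on TCP and 1001 ± 51.0 (SD, n = 3) on PCL, with 959.9 ± 30.5 (SD, n = 3) on ISB-P. Of the 9 mesenchymal markers on the list, Col1a2 was listed at 0 in all 7 libraries, although its partner Col1a1 had a mean of 5903 FPKM over them. Prrx1, a transcription factor of mesenchymal cells, was 292 FPKM on PCL and 230.4 on ISB-P on average (log2 fold change -0.34, adjusted p = 0.470 in limma, or 0.00770 with replicate number as a blocking term). The 5 endothelial markers, Tie1 and Kdr among them, summed to at most 1.14 FPKM in any library. The 4 adipocyte markers, led by Plin1 and Adipoq, summed to 4.83 FPKM on TCP and to 0.457 to 0.963 on the films.

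Among the phosphatases, Dusp10 was higher on ISB-P than on PCL, Dusp1 had a ratio of 1.93 that did not pass the test, and the ERK phosphatases Dusp5 and Dusp6 were the most abundant on either film and overlapped between them. On ISB-P, Dusp10 was 14.6, 15.1 and 15.2 FPKM for replicates 1, 2 and 3, while PCL gave 3.41, 3.79 and 3.73 in that order and TCP gave 15.3. The lowest ISB-P value was thus far above the highest PCL value, and ISB-P lay beside the TCP library. The ratio of the film means was 4.11, and the ratio within replicates 1, 2 and 3 was 4.30, 3.99 and 4.08. On log2(FPKM + 1), a scale on which changes of weakly expressed genes appear too small, the log2 fold change of Dusp10 was 1.78 (standard error 0.11, adjusted p = 0.00138 in limma over 9467 tested genes). All 10 genes passed the filter for testing, which asked for 1 FPKM or more in any 3 of the 6 libraries from films. Dusp10 was the only one of the 10 with an adjusted p under 0.05, against 1.1% of tested genes called higher, and none of the 10 was called lower, against 0.623% (1.72% in either direction). Of the 10 genes, 4 had an unadjusted p under 0.05, against 12.1% of tested genes. Fewer cells of a type and less RNA per cell cannot be told apart in such bulk libraries.

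Dusp1, an immediate early phosphatase induced by growth factors and stress alike, was 64.2, 60.4 and 47.3 FPKM on ISB-P and 33.2, 29.9 and 26.2 on PCL in replicates 1, 2 and 3. The films did not overlap. Mean levels were 29.8 ± 3.49 FPKM for PCL and 57.3 ± 8.88 for ISB-P (SD, n = 3 each), and its log2 fold change of 0.92 (standard error 0.17) had an adjusted p of 0.0523 in limma, outside the threshold. It was 0.132 after scaling to a common total, 0.129 with upper quartile scaling and 0.166 after quantile normalization. Within replicates 1, 2 and 3 the ratio was 1.94, 2.02 and 1.81. On both films replicate 1 held the highest value of Dusp1 and replicate 3 the lowest, and in a paired limma fit, in which replicate number was a blocking term, the adjusted p was 7.81e-05. In the limma fit without pairing, the adjusted p was 0.0357 when ISB-P replicate 3 was left out and 0.295 when ISB-P replicate 2 was left out.

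Dusp16 was expressed at a lower level, with 5.66, 5.96 and 5.00 FPKM on ISB-P, 3.98, 3.01 and 3.16 on PCL and 2.95 on TCP. Every ISB-P value was above every PCL value. The log2 fold change came to 0.58 with a standard error of 0.13 (adjusted p = 0.105 in limma, or 0.00448 in the paired fit). Dusp10, Dusp16 and Dusp8, the phosphatases that prefer JNK and p38, together summed to 21.3, 21.5 and 20.7 FPKM on ISB-P, to 7.58, 7.04 and 6.97 on PCL and to 18.9 on TCP. Of the summed FPKM of the 10 MAP kinase phosphatases with a kinase-binding domain, which are the 6 described and Dusp2, Dusp7, Dusp8 and Dusp9, this was 6.16% to 7.72% on ISB-P, 2.63% to 2.83% on PCL and 7.0% on TCP. Dusp10 alone gave 15.0 of the mean sum of 21.1 FPKM on ISB-P and 3.64 of 7.20 on PCL, so that these sums largely repeat its values.

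**Figure D1:**
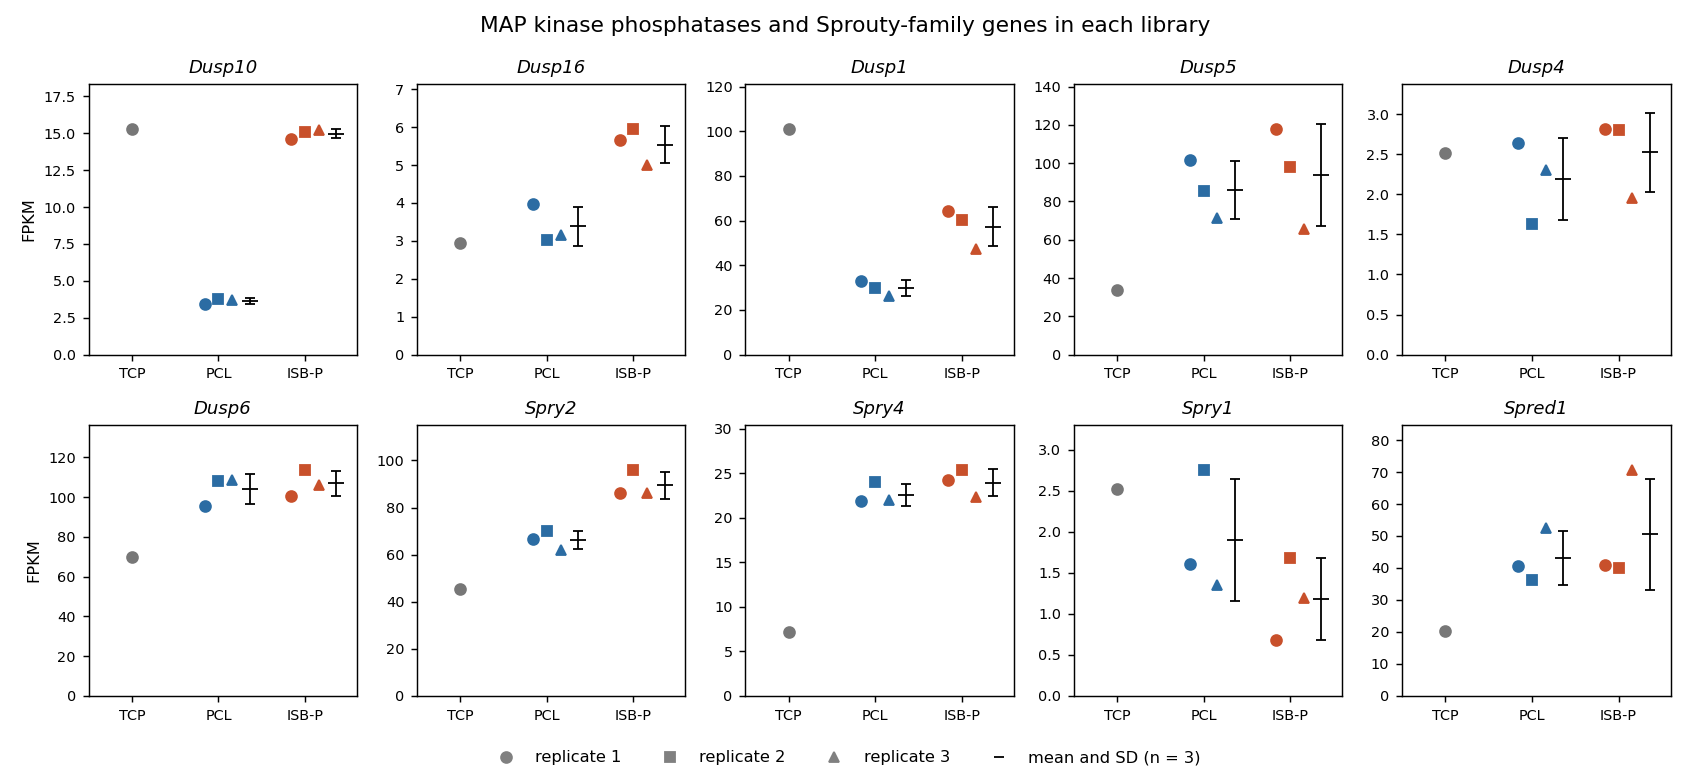
FPKM (vertical axis, from 0) of each of the 10 genes in the TCP, PCL and ISB-P libraries, with marker shapes for the replicate number and bars for the mean and SD of 3 libraries. Dusp10, Dusp16, Dusp1 and Spry2 show no overlap between PCL and ISB-P, and for Dusp5, Spry4 and Spred1 the TCP library is less than 1 in 2 of either film mean.

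The ERK phosphatases gave another picture. Dusp6 was 101, 114 and 106 FPKM on ISB-P and 95.6, 108 and 109 on PCL, so that the films overlapped. Its log2 fold change was 0.04 with a 95% confidence interval of -0.25 to 0.33, or 0.839-fold to 1.26-fold on the log2(FPKM + 1) scale. This interval reflects the spread between these libraries without further scaling. Dusp5 was 118, 98.2 and 65.4 FPKM on ISB-P and 101, 85.3 and 71.5 on PCL. Replicate 1 was its highest and replicate 3 its lowest library on both films, the spread within a film was larger than the difference between the films, and the log2 fold change was 0.10 (95% confidence interval -0.48 to 0.68). In the paired fit the interval for Dusp5 narrowed to -0.10 to 0.29 and that for Dusp6 to -0.11 to 0.19. The sign of both genes turned when the libraries were scaled to a common total, to -0.018 and -0.077, so no direction is given. Dusp4, a nuclear phosphatase, was near the filter at 1.63 to 2.82 FPKM over the 6 film libraries, and its films overlapped (log2 fold change 0.14, 95% confidence interval -0.26 to 0.54).

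The sequences ahead of the RefSeq starts of Dusp10, Dusp1 and Dusp5 are shown because these 3 phosphatases had 3 different patterns over the surfaces. Of the 10 genes, 9 had a promoter in the RefSeq table of the GRCr8 rat build, with 2 starts for Spry2. Each stretch holds the 250 bases before a start, 5′ to 3′ on the strand of the gene, with the motif matches in capitals.
Dusp10, chr13:98145643-98145892, plus strand: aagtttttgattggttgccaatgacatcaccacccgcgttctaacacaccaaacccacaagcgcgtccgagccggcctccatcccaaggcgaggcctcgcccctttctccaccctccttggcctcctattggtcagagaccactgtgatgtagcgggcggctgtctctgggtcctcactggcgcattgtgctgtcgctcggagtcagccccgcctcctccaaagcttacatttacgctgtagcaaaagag
Dusp1, chr10:17184603-17184852, plus strand: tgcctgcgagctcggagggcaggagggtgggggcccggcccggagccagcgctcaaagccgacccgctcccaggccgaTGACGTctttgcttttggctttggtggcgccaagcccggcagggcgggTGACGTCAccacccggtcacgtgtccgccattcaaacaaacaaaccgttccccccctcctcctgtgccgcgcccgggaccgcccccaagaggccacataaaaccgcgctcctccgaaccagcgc
Dusp5, chr1:262543524-262543773, plus strand: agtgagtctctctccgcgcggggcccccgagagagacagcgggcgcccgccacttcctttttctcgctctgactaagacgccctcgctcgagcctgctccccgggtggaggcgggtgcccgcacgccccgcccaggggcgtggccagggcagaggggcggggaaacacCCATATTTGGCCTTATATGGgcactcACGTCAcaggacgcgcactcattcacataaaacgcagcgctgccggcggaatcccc
The motifs searched on both strands were the cyclic AMP response element TGACGTCA, its core TGACGT, which lies within it, the AP-1 site TGANTCA, the ETS core CCGGAAG, the heat shock element core GAANNTTC and the CArG box of serum response factor, SRF. The full cyclic AMP response element was matched in Dusp1 alone among the 9 genes, 124 to 117 bases before the start, and in 1.59% of all 33469 promoter stretches of this length. The core was matched a further time in Dusp1, 172 to 167 bases before the start, and in Dusp5, and in 6.95% of all stretches. Dusp5 had 2 adjoining CArG boxes, 82 to 63 bases before its start, where 1.497% of all stretches hold at least 1. Dusp16 had the heat shock element core, as did 7.23% of all stretches. These letters were not matched in the stretch of Dusp10, and the AP-1 site and ETS core, present in 6.34% and 7.27% of all stretches, were not matched in any of the 9 genes. A match is a run of letters and not a measured binding site.

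Of Spry1, Spry2, Spry4 and Spred1, only Spry2, the most abundant of them, did not overlap between the films, and it did overlap after quantile normalization. Spry2 was 86.0, 95.9 and 86.3 FPKM on ISB-P, 66.7, 70.0 and 62.1 on PCL and 45.4 on TCP. Every ISB-P library was above every PCL library and every PCL library above TCP. The ratio within replicates 1, 2 and 3 was 1.29, 1.37 and 1.39, with a log2 fold change of 0.43 (standard error 0.12, adjusted p = 0.184 in limma, or 0.00301 in the paired fit). Spry4, which restrains Ras activation as Spry2 does, was 24.2, 25.4 and 22.3 FPKM on ISB-P and 21.8, 24.0 and 22.0 on PCL. Its films overlapped and the 95% confidence interval of its log2 fold change of 0.08 ran from -0.21 to 0.37. Spred1, which brings the Ras inhibitor neurofibromin to the membrane, was 41.0, 40.1 and 70.6 FPKM on ISB-P and 40.5, 36.3 and 52.4 on PCL. Replicate 3 was its highest library on both films, and without ISB-P replicate 3 its log2 fold change turned from 0.19 to -0.069. Spry1 had the lowest mean of the 10 on both films, with 0.680, 1.67 and 1.19 FPKM on ISB-P and 1.602, 2.75 and 1.35 on PCL. It was lower on ISB-P within each replicate number, with ratios of 0.425, 0.609 and 0.888, and its log2 fold change was -0.40 (adjusted p = 0.618 in limma, or 0.0408 in the paired fit). Spry1 passed the filter of 1 FPKM only through PCL, the film where it was higher, so its paired call is given as a description.

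Counted over the 10 genes, Dusp1, Dusp10, Dusp16 and Spry2 were higher in all 3 ISB-P than in all 3 PCL libraries, against 8.17% of tested genes, and none was lower throughout, against 9.54% (17.7% in either direction). A two-sided exact permutation test of ISB-P against PCL reached p = 0.1 in these 4 genes, and 3 libraries against 3 allow no smaller value, with p between 0.2 and 0.8 in the other 6. The median log2 fold change of the 10 genes was 0.17, beside 0.02 over all tested genes. In the paired fit, these 4 genes were called higher, against 13% of tested genes, and Spry1 was called lower, against 11.4%.

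**Figure D2:**
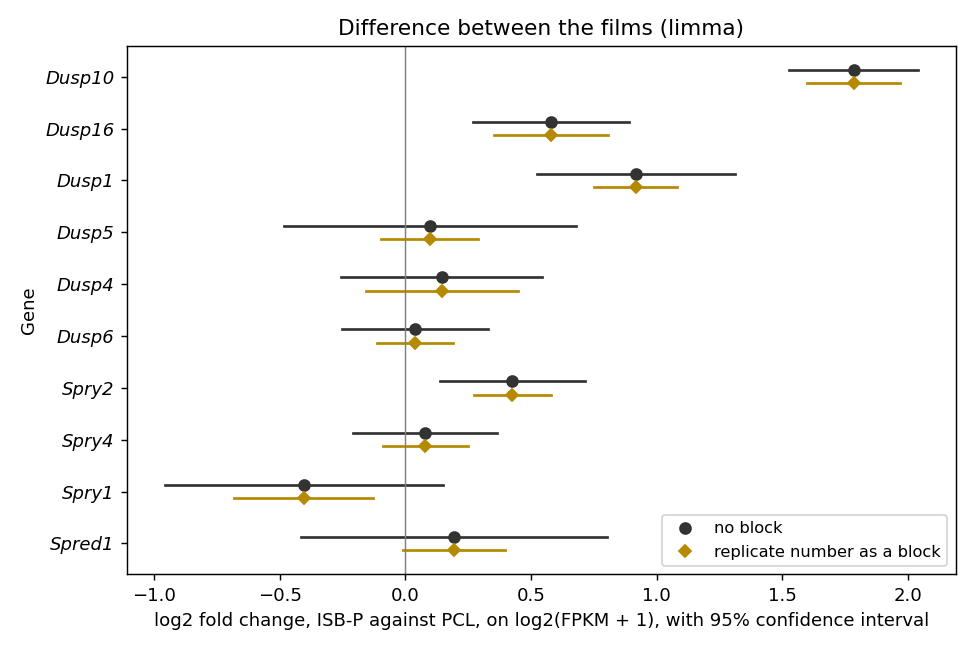
Log2 fold change of ISB-P against PCL on log2(FPKM + 1) (horizontal axis) with the 95% confidence interval from limma for each of the 10 genes, without pairing (circles) and in the paired fit (diamonds). Dusp10 stands apart at 1.78, and the intervals of Dusp5, Dusp4, Dusp6, Spry4 and Spred1 span 0 in both fits.

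The levels, which FPKM makes comparable between genes because it is taken per length, ranged over the family from 1.90 ± 0.749 FPKM (SD, n = 3) for Spry1 to 104 ± 7.38 for Dusp6 on PCL. The order on PCL was Dusp6, Dusp5, Spry2, Spred1, Dusp1, Spry4, Dusp10, Dusp16, Dusp4 and Spry1. On ISB-P it was the same but for Dusp1, at 57.3 ± 8.88 FPKM, and Spred1, at 50.6 ± 17.4, which changed places and whose libraries overlapped. Of the other neighbours in this order, Dusp6 and Dusp5 overlapped on both films, Dusp5 and Spry2 on ISB-P, and Dusp10 and Dusp16 as well as Dusp4 and Spry1 on PCL. On TCP, Dusp1 was the highest at 101 FPKM, ahead of Dusp6 at 70.1 and Spry2 at 45.4.

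Set against the 1 TCP library, which allows no test, the 10 genes split in direction. Dusp1 and Dusp10 were over 2-fold higher on TCP than on PCL, by 3.32 and 3.51 times with 1 FPKM added to each value, where 3.04% of tested genes were. Dusp5, Spry4 and Spred1 were over 2-fold lower, with PCL 2.52, 2.91 and 2.06 times above TCP, where 5.56% of tested genes were lower (8.6% in either direction). Against ISB-P the same 3 genes were over 2-fold lower on TCP, with ISB-P 2.74, 3.07 and 2.41 times above it, against 8.98% of tested genes, and none of the 10 was over 2-fold higher, against 4.28% (13.3% in either direction). The difference of Spred1 lay near the 2-fold limit. PCL was 1.84 times above TCP without PCL replicate 3 and 1.92 to 1.97 times under the 3 other scalings, and ISB-P was 1.94 times above it without ISB-P replicate 3. Spry4 was 7.13 FPKM on TCP and at least 21.8 in every film library, and Dusp5 was 33.6 on TCP and at least 65.4. The TCP value was below all 6 film libraries for Dusp5, Dusp6, Dusp16, Spry2, Spry4 and Spred1, where this held for 29.7% of tested genes, and above all of them for Dusp1 and Dusp10, against 25.4%. For Dusp10 the margin was small, with 15.3 FPKM on TCP and 15.2 in the highest ISB-P library, and the ratio of TCP to ISB-P was 1.02. Blood cell markers were also higher on TCP. The 9 of them in the files summed to 129.5 FPKM there and to between 39.2 and 46.8 on the films. Lyz2, a lysozyme of macrophages and the most abundant of them, was 72.9 FPKM on TCP and 16.6 to 27.2 on the films. The pan-leukocyte marker Ptprc was 1.48 FPKM on TCP and at most 1.23 on the films, and Cd34 and Cd3e were listed at 0 throughout. Col1a2 was listed at 0 as well, so a listed 0 is not read as absence. All 4 of the blood markers that could be tested were over 2-fold above both film means on TCP. Their part in the TCP values of Dusp1 and Dusp10 was not tested. With the paired fit, Lyz2 was called higher and Cd14, a monocyte receptor, lower on ISB-P (adjusted p = 0.0299 and 0.00663), and neither was called without it (0.637 and 0.175). Lyz2 was 19.6 ± 2.66 FPKM on PCL and 23.9 ± 3.27 on ISB-P and Cd14 was 15.3 ± 1.11 and 11.2 ± 0.266 (SD, n = 3 each).

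**Figure D3:**
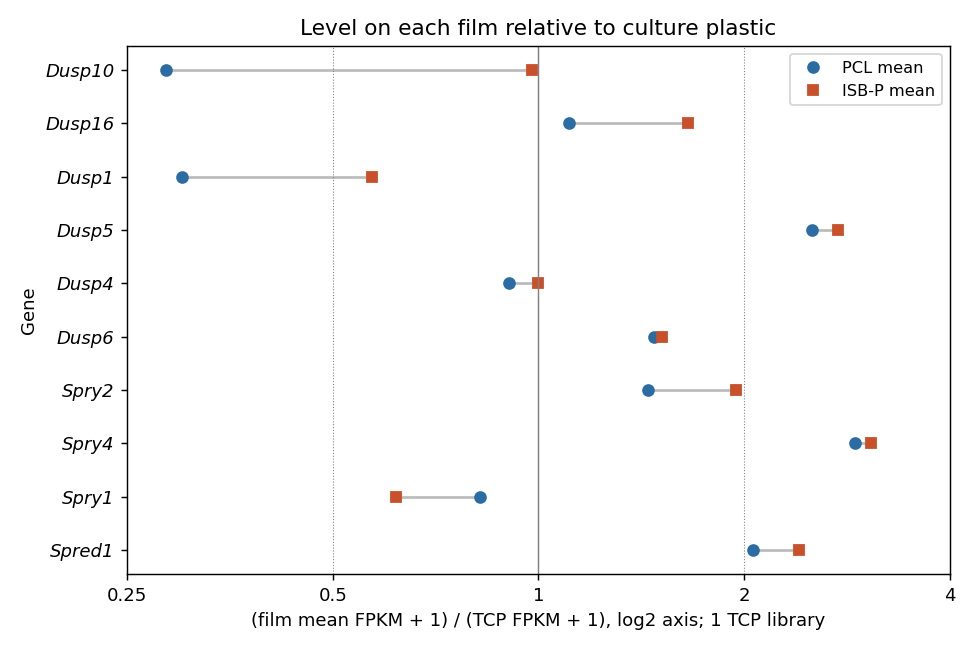
Ratio of each film's mean FPKM plus 1 to the TCP value plus 1 (horizontal axis, log2 scale) for the 10 genes, with circles for PCL and squares for ISB-P and dotted lines at 2-fold. Dusp1 and Dusp10 on PCL lie far to the left, Dusp10 on ISB-P lies at 0.980, and Dusp5, Spry4 and Spred1 lie to the right of 2 on both films, Spred1 on PCL narrowly at 2.06.

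The genes whose values over the 7 libraries were most like those of 3 of the members are given as a description. For Dusp1 they were Ptk2b, Aldh1l1 and Siglec10, with Pearson's r on log2(FPKM + 1) of 0.995, 0.993 and 0.986 over 7 libraries. For Spry2 they were Gprc5a, Rab20 and Procr (r = 0.998, 0.987 and 0.987), and for Dusp6 they were Cdca4, Eif5a and Slc25a5 (r = 0.993, 0.987 and 0.985). Correlations over 0.9 were reached by 80 tested genes for Dusp1, 154 for Spry2 and 367 for Dusp6, and the points share the replicate numbers and the TCP library.

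The rest of the pathway was read from 9 lists of genes, in the order in which the signal travels. Of their 106 genes, 81 were tested between the films. Of these, 6 were higher and 3 lower on ISB-P at an adjusted p under 0.05, which is 11.1%, beside 1.72% of all tested genes. The calls were 4 higher and 4 lower after scaling to a common total and 4 and 3 with upper quartile scaling. With the filter of 5 FPKM they were 4 and 2. In the paired fit, 13 were higher and 15 lower, which is 34.6%, beside 24.4%. The lists were chosen with earlier results of these data known, so neither share is a test of the pathway. The median log2 fold change of the 81 genes was -0.04. Without PCL replicate 2 the calls fell to 0 higher and 1 lower, without ISB-P replicate 2 to 1 and 1, without PCL replicate 1 to 2 and 1, and without PCL replicate 3 to 3 and 1. Ksr1 was called in each of these 4 fits, with an adjusted p of at most 0.0489 over the 6 fits that leave out 1 library, while Tgfa and Etv5 were lost in all 6. Of the others, Areg was lost in 1, Ereg in 2, Hbegf in 3, Errfi1 and Mapk14 in 4 each and Egr2 in 5. Ksr1 and Egr2 passed the filter for testing only through the film where they were higher. Their calls are counted in the numbers above but are given as a description, and the calls of Ksr1 in the 6 fits add no support.

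On the list of 16 growth factor ligands, 11 were tested, 4 were called higher and none lower, and the median log2 fold change was -0.05. The 4 are known as ligands of the epidermal growth factor (EGF) receptor, a grouping made after the calls were seen, and Btc, another such ligand on the list, was too low to be tested at 0 to 0.392 FPKM on the films. Areg, which encodes amphiregulin, was 17.1, 18.2 and 25.7 FPKM on ISB-P, 2.86, 2.76 and 4.12 on PCL and 0.580 on TCP. ISB-P was above PCL in every library and PCL above TCP, and the log2 fold change was 2.32 with a standard error of 0.20 (adjusted p = 0.0039 in limma). Ereg, which encodes epiregulin, was 36.9 ± 7.77 FPKM (SD, n = 3) on ISB-P, 8.39 ± 1.15 on PCL and 0.269 on TCP (log2 fold change 2.00, with an error of 0.19 and an adjusted p of 0.00534). Hbegf, the heparin-binding ligand, was 52.7 ± 5.35 FPKM on ISB-P, 21.7 ± 2.34 on PCL and 31.7 on TCP (adjusted p = 0.0124). Tgfa was 22.7 ± 0.890, 13.6 ± 1.12 and 2.42 FPKM (adjusted p = 0.0482, at least 0.0930 with any 1 library left out). Their receptor gene Egfr was 16.4 ± 1.31 and 16.9 ± 0.951 FPKM on ISB-P and PCL. Of the other tested ligands, Fgf7 and Pdgfa were lower on ISB-P in the paired fit (log2 fold changes -0.63 and -0.81, adjusted p = 3.09e-04 and 2.51e-04) and not without it (0.178 and 0.265). Vegfa was 102 ± 7.70 FPKM on ISB-P and had 106 ± 16.7 on PCL.

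Among the 9 tested receptors none was called without pairing. Pdgfrb, the PDGF receptor that marks mesenchymal cells, was 166 ± 11.6 FPKM on PCL and 97.8 ± 11.5 on ISB-P, without overlap (log2 fold change -0.76, adjusted p = 0.0510 in limma, or 1.41e-04 in the paired fit). In the paired fit, Erbb2 and Pdgfra were also lower and Fgfr2 was higher, with log2 fold changes of -0.48, -0.29 and 0.38 and adjusted p of 0.00599, 0.0200 and 0.0124. Fgfr1, the most abundant receptor on the list by the mean over the 7 libraries though not on PCL, was 133 ± 5.48 FPKM on PCL and 129 ± 9.94 on ISB-P.

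In the ERK cascade, 1 of 19 tested genes was called. Ksr1, the scaffold that holds Raf, MEK and ERK together, was 1.07, 1.04 and 0.906 FPKM on ISB-P, 3.72, 3.59 and 3.30 on PCL and 2.44 on TCP. It was lower in every ISB-P library than on any other surface (log2 fold change -1.18 with a standard error of 0.10, adjusted p = 0.00361 in limma). Ksr1 passed the filter of 1 FPKM only through PCL, the film where it was higher, so its call is given as a description. The adaptor Gab1 and the Ras activator Sos2 were lower in the paired fit alone (log2 fold changes -0.59 and -0.35, adjusted p = 0.00153 and 0.0177). The most abundant genes of this list were the adaptor Shc1 and the ERK gene Mapk3, with log2 fold changes of 0.04 and -0.07. In the JNK and p38 cascades, 1 of 9 tested genes was called. Mapk14, which encodes the p38 alpha kinase on which Dusp1 and Dusp10 act, was 16.8, 15.9 and 13.7 FPKM on ISB-P, 30.8, 30.5 and 31.9 on PCL and 37.7 on TCP (log2 fold change -0.97 with a standard error of 0.13, adjusted p = 0.0201). The films did not overlap, and TCP was above both. Map3k5, a stress-activated kinase at the head of these cascades, was lower in the paired fit alone (log2 fold change -0.48, adjusted p = 0.0171). Mapkapk2 and Map2k4, the most abundant of the list on both films, had log2 fold changes of -0.15 and 0.07. Map3k7 was at most 0.02 FPKM and Map2k3 was listed at 0 in all 7 libraries.

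**Figure D4:**
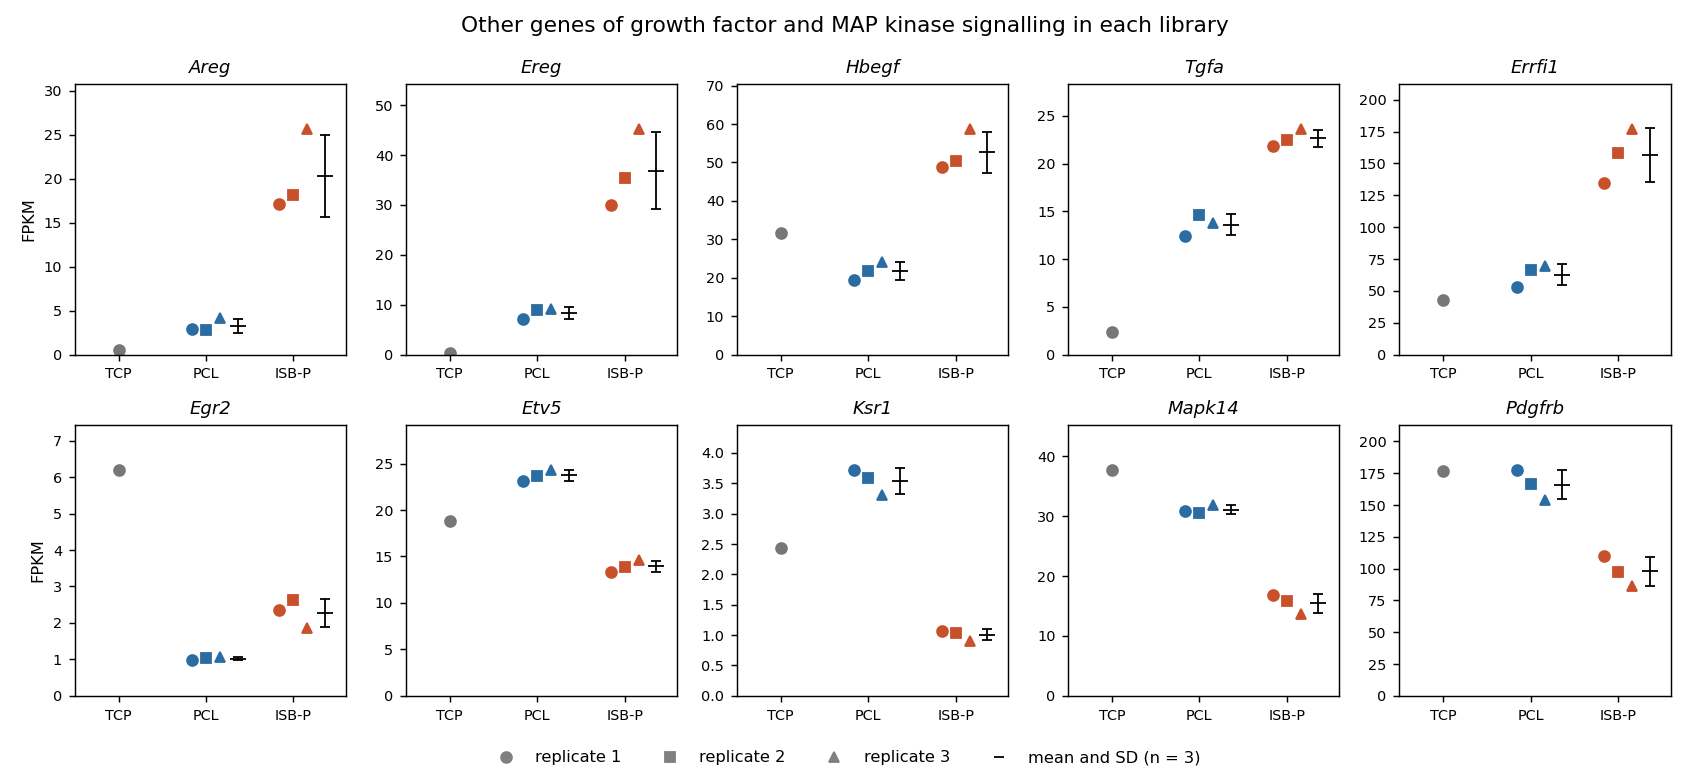
FPKM (vertical axis, from 0) of the 9 other pathway genes with an adjusted p under 0.05 between the films and of Pdgfrb in the TCP, PCL and ISB-P libraries, with marker shapes for the replicate number and bars for the mean and SD of 3 libraries. Areg, Ereg, Hbegf, Tgfa, Errfi1 and Egr2 are higher on ISB-P than on PCL, and Etv5, Ksr1, Mapk14 and Pdgfrb lie lower.

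Of the transcripts known to follow ERK activity, 15 were tested, of which Egr2 was called higher and Etv5 lower. Egr2, an immediate early zinc finger factor, was 2.34, 2.63 and 1.87 FPKM on ISB-P, 0.977, 1.03 and 1.06 on PCL and 6.19 on TCP (log2 fold change 0.69, adjusted p = 0.0445). Egr2 passed the filter of 1 FPKM only through ISB-P, the film where it was higher, so its call is given as a description. Etv5, an ETS factor that is transcribed with Dusp6 and Spry4 downstream of FGF receptors, was 13.4, 13.8 and 14.6 FPKM on ISB-P, 23.1, 23.7 and 24.3 on PCL and 18.8 on TCP (log2 fold change -0.73, adjusted p = 0.0341, at least 0.0523 with any 1 library left out). Dusp6 and Spry4 overlapped between the films, as given above, and Etv5 did not. In the paired fit, Fosb, Fosl1, Egr3 and Epha2 were also higher (log2 fold changes 0.38, 0.44, 0.50 and 0.54) and Fos and Ccnd1 lower (-0.33 and -0.46), with adjusted p of 0.0107, 0.00335, 0.0124, 0.0117, 0.0496 and 0.00240. The anti-apoptotic Ier3, the most abundant of these transcripts on both films though not on TCP, was 265 ± 21.5 FPKM on ISB-P, 249 ± 33.7 on PCL and 70.1 on TCP. Of the 15, 5 were over 2-fold higher and 2 over 2-fold lower on TCP than on PCL, where 3.04% and 5.56% of all tested genes were. Against ISB-P, 4 were higher and 4 lower on TCP by this measure, beside 4.28% and 8.98%.

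The other negative regulators were read beside the 10 genes. Errfi1, which encodes an inhibitor that binds the EGF receptor itself, was 135, 158 and 177 FPKM on ISB-P, 53.1, 66.0 and 69.2 on PCL and 42.8 on TCP. Every ISB-P library was above every other library, with a log2 fold change of 1.31 (standard error 0.16, adjusted p = 0.0177), and it was the only 1 of 7 tested genes of this list to be called. Pebp1, the Raf kinase inhibitor protein, and Pea15, which keeps ERK in the cytosol, were the most abundant of the list by the mean over the 7 libraries, with log2 fold changes of -0.03 and 0.09. Of the other phosphatases with a kinase-binding domain, Dusp7 and Dusp2 could be tested and were not called (log2 fold changes -0.16 and 0.30), and Dusp8 and Dusp9 fell under the filter. Spred2 and Spred3 were not called either (-0.19 and -0.03). Of the 7 tested atypical phosphatases, which lack that domain, none was called without pairing, and in the paired fit Dusp14 and Dusp23 were lower and Dusp15 higher (log2 fold changes -0.38, -0.79 and 0.34, adjusted p = 0.0165, 0.0164 and 0.0333). Dusp23 passed the filter of 1 FPKM only through PCL and Dusp15 only through ISB-P, the film where each was higher. The calls of Dusp23 and Dusp15 are therefore given as a description. Dusp18, another atypical phosphatase, had a log2 fold change of -0.04.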

How the data were processed

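Each library was made by the authors from polyadenylated RNA with a strand-specific kit and sequenced as paired ends. For each library the authors deposited a normalized value for 17147 gene symbols. The unit is not named. The values were read as FPKM because they are not whole, their sums differ between libraries, and the submitters' processing notes list Cuffdiff 2.2.1 (with bcl2fastq 2.20.0.422, cutadapt 1.18, TopHat2 2.0.13 and the rn5 build, roles not given). The study's methods name ExDEGA. Any scaling between libraries is not given in the sources used here.

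Groups and replicate numbers came from the sample titles. The 9467 genes that reached 1 FPKM in 3 or more film libraries were tested for ISB-P against PCL on log2(FPKM + 1) in limma 3.58.1 (trend, two-sided, Benjamini-Hochberg) in R 4.3.3, a procedure that was tested on simulated data. Comparisons with TCP are ratios without a test. The paired fit took the replicate numbers of the titles. They were taken to pair the libraries because deviations from the film means correlated across genes at 0.887, 0.431 and 0.867 between the films for numbers 1, 2 and 3, against -0.836 to 0.177 for unequal numbers. The deviations cancel within each film, so the correlations for equal and unequal numbers are not independent. No label states a pairing, and every p-value of the paired fit rests on this choice from the same data. The gene lists and motifs were chosen with earlier results of these data known. Named genes are the 10 members, list genes called with or without the replicate block, the 2 most abundant of each list by the mean over the 7 libraries, the 3 genes most like Dusp1, Dusp6 and Spry2, and, outside this rule and after their values were seen, Egfr, Map3k7, Map2k3, Ptprc, Cd34, Cd3e, Col1a2, Btc, Dusp8 and Dusp9. Not every gene that the rule names is reported here. Promoter sequences are from RefSeq (GRCr8), which is not the build of the files. Figures used matplotlib 3.10.9 in Python 3.11.15.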

Additional observations from a re-analysis of the deposited data

How the results depend on the processing

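The alternatives were a pseudocount of 0.1, no filter or a filter of 5 FPKM, scaling to a common total or by the upper quartile, quantile normalization, a paired fit with replicate number as a block, a fit that includes TCP, no mean-variance trend, and each film library left out. Dusp10 was called higher under all of them, though it passed the filter of 5 FPKM through its ISB-P values alone, so that its call there adds no support. In the fit with the replicate block, the calls over the 10 genes went from 1 higher and 0 lower to 4 and 1, over all tested genes from 104 and 59 to 1228 and 1079, and over the pathway lists from 6 and 3 to 13 and 15. Over all tested genes, calls were 61 higher and 24 lower with the filter of 5 FPKM, 38 lower without the trend and 39 lower with upper quartile scaling. Scaling to a common total shifted the median log2 fold change of all genes from 0.02 to -0.09 and the calls to 70 higher and 70 lower. With 1 film library left out, calls over all tested genes ranged from 14 to 82 higher and from 6 to 31 lower. Over the pathway lists they ranged from 0 to 5 higher and from 1 to 2 lower, with 0 higher and 1 lower without PCL replicate 2 and 1 and 1 without ISB-P replicate 2. Over the 10 genes they ranged from 1 to 2 higher, with Dusp1 added without ISB-P replicate 3. Of the 10 genes, those without overlap and higher on ISB-P went from 4 to 3 after quantile normalization, where Spry2 was lost, to 5 without PCL replicate 2, where Spry4 was added, and to 6 without ISB-P replicate 3, where Dusp4 and Spry4 were added. Those lower ranged from 0 to 1, with Spry1 added without ISB-P replicate 2.

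Small log2 fold changes changed sign. Scaling to a common total gave -0.018 for Dusp5, -0.077 for Dusp6 and -0.032 for Spry4, and quantile normalization gave -0.023 for Dusp5 and -0.086 for Dusp6. With 1 library left out, the values ranged from -0.087 to 0.33 for Dusp5, from -0.022 to 0.079 for Dusp6 and from -0.069 to 0.34 for Spred1. The number of the 10 genes over 2-fold higher on TCP than on ISB-P went from 0 to 1 after quantile normalization (Dusp1) and to 1 with a pseudocount of 0.1 (Spry1). Those over 2-fold lower on TCP than on PCL went from 3 to 2, with Spred1 lost, under each of the 3 scalings and without PCL replicate 3. Those lower than on ISB-P went from 3 to 2 without ISB-P replicate 3, again with Spred1 lost. The cause of these changes was not tested, beyond the smaller number of genes or libraries that some alternatives leave. What depth limits cannot be given, since read numbers are unknown.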
